A study of Macaca mulatta with 28 samples.

Results

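The 9 transcription factors described here, NR4A2, PITX3, LMX1A, LMX1B, FOXA1, FOXA2, EN1, EN2 and OTX2, are those that specify midbrain dopamine neurons during development or keep their identity in the adult. They were chosen by name, and all 9 were found among the 16885 gene symbols of the deposited count table. Levels were measured by RNA-seq in punches of the ventral tegmental area (VTA), whose dopamine neurons project to the striatum and cortex, with 1 library per animal from 28 adult male rhesus macaques labelled as wild type. Of these, 17 drank alcohol: after induction by scheduled food pellets they had open access to ethanol for 12 months, followed by month-long abstinences alternating with renewed access, and they were necropsied 30 days into the last abstinence. The labels place 1 drinker in the Low category, 2 in Binge, 5 in Heavy and 9 in Very Heavy. The 11 controls received no alcohol and were either calorically yoked to drinkers or housing controls, which the labels do not tell apart. There were 8 animals of either kind in cohort 1, but 9 drinkers to 3 controls in cohort 2, and 0 Binge animals came from cohort 1 and 0 Low animals from cohort 2.

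In the embryo, FOXA1, FOXA2, OTX2, LMX1A and LMX1B pattern the ventral midbrain and open the dopaminergic programme, and EN1 and EN2 set the territory at the junction of midbrain and hindbrain. NR4A2 and PITX3 then switch on the genes of transmitter synthesis and handling, among them TH, the rate-limiting enzyme of dopamine synthesis, and several of the factors stay on in adult neurons and support their survival. Since dopamine neurons are a minority of the cells in such a punch, TH serves here as the reference against which each factor was set.

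Totals ran from 12303915 to 27338673 counts per animal, and mitochondrial transcripts held from 36.4% to 60.6% of them. The summed level of the 7 dopamine neuron markers, all of which had counts, ranged from 26.3 to 1574 CPM in drinkers and from 26.1 to 1664 CPM in controls, so the tissue label was borne out to very different degrees in different animals. CPM, the count scaled to library totals after TMM normalization, is the unit of all levels, log2 values were formed with a prior count of 2, and 3 counts, taken as the limit of detection, corresponded to between 0.110 and 0.244 CPM. In bulk tissue, fewer cells of a type and less RNA per cell cannot be told apart.

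Each symbol stands for 1 Ensembl transcript in the table, so that counts assigned to other transcripts of the gene are not part of its value. The factors were listed as NR4A2 (ENSMMUT00000056301.2), PITX3 (ENSMMUT00000082332.1), LMX1A (ENSMMUT00000008821.4), LMX1B (ENSMMUT00000003167.4), FOXA1 (ENSMMUT00000088493.1), FOXA2 (ENSMMUT00000014571.4), EN1 (ENSMMUT00000097539.1), EN2 (ENSMMUT00000094924.1) and OTX2 (ENSMMUT00000054059.2). All 9 passed the filter of at least 5 counts in at least 3 animals, but they were measured with unequal precision. OTX2 had a median of 427 counts per animal (range 201 to 996) and FOXA2 of 251.5 (58 to 876). FOXA1 followed with 73.5 (8 to 187), EN1 with 67.5 (0 to 523), LMX1B with 44 (0 to 181) and EN2 with 33.5 (0 to 157). The lowest medians were those of PITX3 with 14.5 (0 to 122), LMX1A with 10.5 (0 to 129) and NR4A2 with 4 (0 to 76). After rounding, NR4A2 and LMX1A were at 0 in 6 animals each, PITX3 and LMX1B in 2 each, and EN1 and EN2 in 1 each. The estimates of OTX2 were fractional in every animal, with 0 of 28 within 0.01 of a whole number, and those of NR4A2 were whole in only 7, whereas LMX1A and LMX1B were whole in 27 animals each. Fractional estimates arise when reads are divided among transcripts that share sequence.

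In the RefSeq annotation of Mmul_10, the orphan nuclear receptor gene NR4A2 lies at chr12:43420121-43428427 on the minus strand, and PITX3, a homeodomain factor gene, at chr9:102750322-102752940 on the minus strand. The LIM-homeodomain genes LMX1A (chr1:22679156-22833528) and LMX1B (chr15:13929361-14016141) are both on the minus strand. Of the forkhead genes, FOXA1 is at chr7:99693018-99698771 on the minus strand and FOXA2 at chr10:43927841-43932137 on the plus strand. The engrailed genes EN1 (chr12:12267168-12273203) and EN2 (chr3:181458839-181468336) are on the plus strand, and OTX2, an orthodenticle homeobox gene, is at chr7:118901435-118912050 on the minus strand. TH itself is at chr14:2224320-2232217 on the minus strand.

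Because several factors belong to families with similar DNA-binding domains, RefSeq mRNAs of relatives were compared for identical stretches. The longest run of bases identical in both mRNAs is printed for 3 pairs to show how far the relatives are alike, all in lower case because no base differs. Each run is shorter than a single sequencing read of this study.
EN1 and EN2, 32 bases: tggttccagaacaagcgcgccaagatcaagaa
FOXA1 and FOXA2, 42 bases: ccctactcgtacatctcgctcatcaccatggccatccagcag
PITX3 and PITX1, 33 bases: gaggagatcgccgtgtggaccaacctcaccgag
The runs lie in the longest open reading frame. FOXA3 also shared up to 35 bases with FOXA1 and with FOXA2. Stretches of 31 bases common to both mRNAs made up 0.0670% of those of EN1, 0.838% of those of FOXA1 (with FOXA2) and 0.206% of those of PITX3, and 0 were common to LMX1A and LMX1B, whose longest shared run was 17 bases. NR4A2 shared at most 23 bases with NR4A1, and OTX2 at most 19 with CRX. The listed Ensembl transcripts themselves were not compared here.

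The factor levels in drinkers and controls address whether a history of drinking, assessed after a month of abstinence, was accompanied by a change in the regulators of dopamine neuron identity. Across the table, 0 of 13769 transcripts (0%) had an adjusted p-value under 0.05 by edgeR's quasi-likelihood test with Benjamini-Hochberg adjustment, and 0 of the 9 factors were among them. At an unadjusted p under 0.05 there were 630 transcripts (4.58%) and 0 factors. DESeq2's Wald test passed 11 transcripts and limma-voom 0, again with 0 factors. TH differed by -0.78 (standard error 0.72) on the log2 scale, with an adjusted p of 1.0.

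NR4A2, which directly activates the TH promoter, ran from 0 to 2.08 CPM in drinkers with a median of 0.269, and from 0 to 2.98 CPM in controls with a median of 0.169. The drinkers lay within the span of the controls, and only 13 of the 28 animals had 5 or more counts. The fitted difference between drinkers and controls was 0.17 (SE 0.86) on the log2 scale, and it was 0.74 (SE 0.84) with cohort as a covariate, 0.55 (SE 1.11) in cohort 1 and 1.14 (SE 1.20) in cohort 2. PITX3, needed for the survival of substantia nigra neurons in mice, ran from 0 to 4.10 CPM in drinkers (median 0.641) and from 0 to 4.79 CPM in controls (median 0.864). Only 2 controls exceeded the highest drinker, and the difference was -0.23 (SE 0.75).

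LMX1A and LMX1B act in overlapping fashion in the floor plate and in the adult neuron. LMX1A lay between 0 and 4.68 CPM in drinkers (median 0.589) and between 0 and 5.06 CPM in controls (median 0.350), with 3 animals at 0 in each group. LMX1B lay between 0 and 7.25 CPM in drinkers (median 1.78) and between 0 and 8.40 CPM in controls (median 2.39). Both groups filled nearly the same range for either gene, and the differences were -0.36 (SE 0.93) for LMX1A and -0.45 (SE 0.70) for LMX1B.

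The forkhead factors, which bind compacted chromatin and act upstream of the other members, were more evenly present. FOXA1 was at 0.641 to 6.98 CPM in drinkers (median 4.07) and at 0.298 to 8.15 CPM in controls (median 3.20). FOXA2 was at 3.21 to 35.5 CPM in drinkers (median 11.2) and at 6.89 to 32.0 CPM in controls (median 12.7). Neither gene was at 0 in any animal, and their differences of -0.04 (SE 0.40) and -0.19 (SE 0.34) had among the smallest standard errors of the set.

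EN1 and EN2, which maintain mitochondrial function and survival of dopamine neurons after birth, gave the most negative differences in edgeR's fit, yet neither passed the test, and limma-voom put EN1 at 0.10 (SE 0.91). EN1 ran from 0.0553 to 16.7 CPM in drinkers (median 2.88) and from 0 to 22.9 CPM in controls (median 3.09), a difference of -0.71 (SE 0.71). EN2 ran from 0 to 5.16 CPM in drinkers (median 1.50) and from 0.210 to 7.41 CPM in controls (median 2.07), a difference of -0.48 (SE 0.58). For EN1 2 controls and for EN2 3 controls lay above the highest drinker, while the remaining animals were interspersed. When the log2 level of TH was added to the fit, the EN1 difference was 0.06 (SE 0.38).

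OTX2, which marks a subset of VTA neurons in the adult, had the smallest standard deviation of the 9 on the log2 scale in either group. Its levels spanned 8.64 to 40.4 CPM in drinkers (median 19.0) and 12.8 to 29.1 CPM in controls (median 21.6), and 3 drinkers exceeded the highest control. The difference was -0.08 (SE 0.22), with standard deviations of the log2 level of 0.70 (n = 17) in drinkers and 0.34 (n = 11) in controls, a contrast in spread that was not tested. For all 9 factors the ranges of drinkers and controls overlapped, as they did for every transcript tested (0% without overlap), and every adjusted p was 1.0. The median log2 difference of the 9 was -0.23, beside 0.00 over all transcripts.

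**Figure D1:**
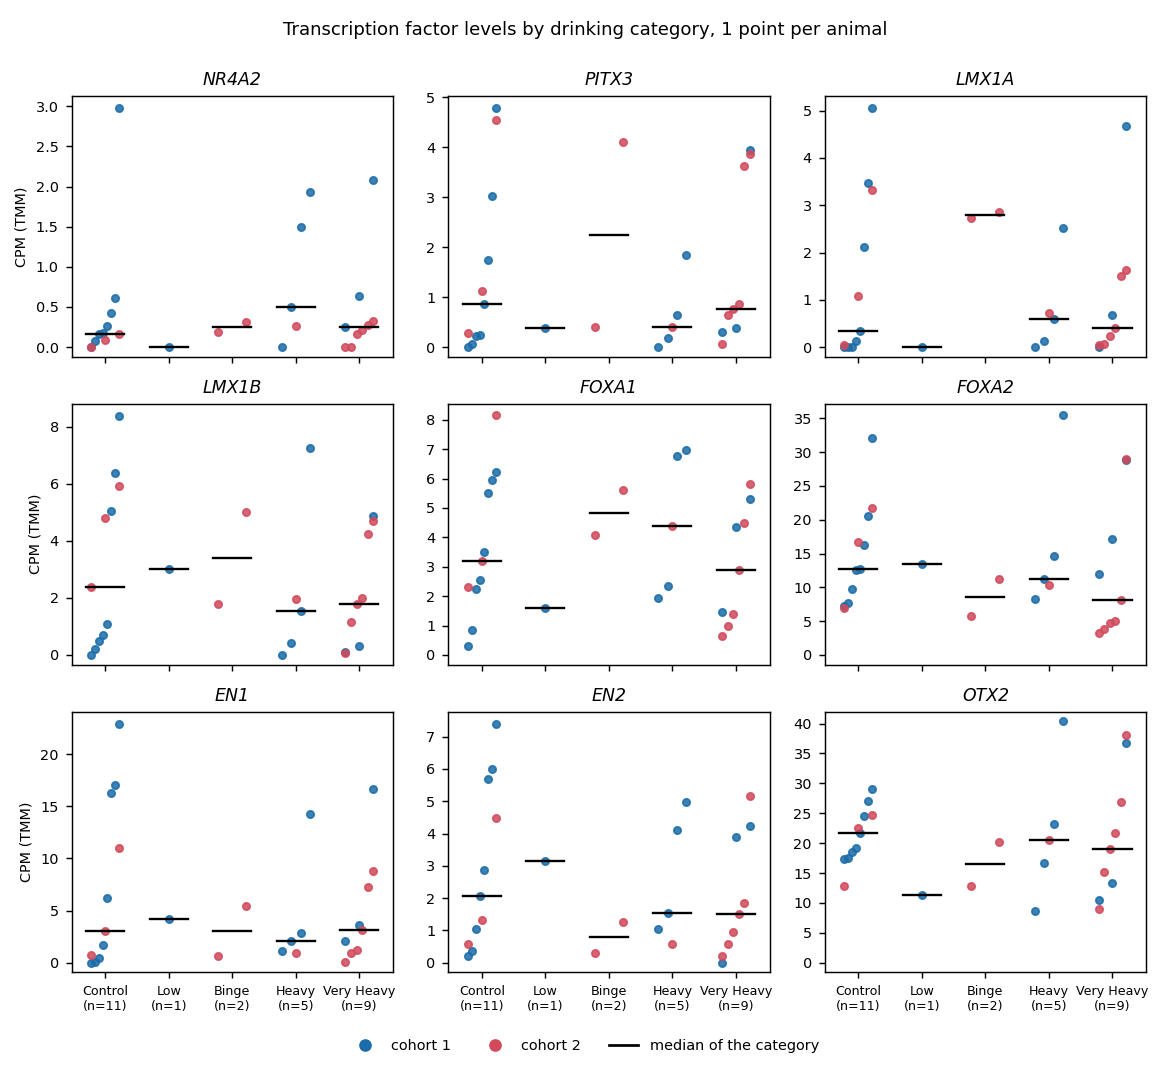
Level of each transcription factor in CPM (vertical axis, linear) by drinking category, with 1 point per animal coloured by cohort and a black line at the median of the category. Within each panel the controls, Heavy and Very Heavy animals cover overlapping ranges, with 0 to 2.98 CPM for NR4A2, 0 to 22.9 CPM for EN1 and 8.64 to 40.4 CPM for OTX2 over all animals.

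The drinking categories order animals by how much they drank, and the medians of no factor followed that order. An F test over the 5 categories passed 158 of 13769 transcripts (1.15%) by edgeR's quasi-likelihood test with Benjamini-Hochberg adjustment and 0 of the 9 factors. At an unadjusted p under 0.05 there were 1384 transcripts (10.1%) and 0 factors. DESeq2's likelihood ratio test passed 396 transcripts, also with 0 factors, and adjusted p-values of the factors ran from 0.882 (NR4A2) to 0.999 (LMX1B) in edgeR's test. Ordered by category medians, EN1 was highest in the Low animal (4.15 CPM), then Very Heavy (3.15), controls (3.09), Binge (3.05) and Heavy (2.11). PITX3 was highest in Binge (2.25 CPM), then controls (0.864), Very Heavy (0.757), Heavy (0.403) and Low (0.372). LMX1B ran from Binge (3.39 CPM) through Low (3.03), controls (2.39) and Very Heavy (1.78) to Heavy (1.55). In each of these orders all 4 pairs of neighbouring categories had overlapping ranges, as they did for NR4A2, FOXA1, FOXA2 and EN2.

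The exceptions were LMX1A, between Binge and Heavy, and OTX2, between Binge and Low, 2 of 9 factors where 34.4% of all transcripts had at least 1 such gap. LMX1A was at 2.85 and 2.73 CPM in the 2 Binge animals, above the 5 Heavy animals, which were at 0.122, 2.52, 0.589, 0 and 0.717 CPM, and its median was 0.394 CPM in Very Heavy, 0.350 in controls and 0 in the Low animal. OTX2 was at 20.2 and 12.7 CPM in the Binge animals and at 11.3 CPM in the Low animal, beside medians of 21.6 CPM in controls, 20.5 in Heavy and 19.0 in Very Heavy. Both gaps rest on the 2 Binge animals, and the Low category is a single animal. The remaining medians were, for NR4A2, 0.499 CPM in Heavy, 0.249 in Very Heavy and in Binge, 0.169 in controls and 0 in Low. FOXA1 had 4.84 CPM in Binge, 4.39 in Heavy, 3.20 in controls, 2.90 in Very Heavy and 1.60 in Low, FOXA2 had 13.5 in Low, 12.7 in controls, 11.3 in Heavy, 8.53 in Binge and 8.14 in Very Heavy, and EN2 had 3.14 in Low, 2.07 in controls, 1.54 in Heavy, 1.50 in Very Heavy and 0.796 in Binge.

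For the categories with enough animals, 0 factors passed in the single contrasts either. Heavy minus Control, where edgeR's test passed 0 of 13769 transcripts (0%) and put 984 (7.15%) under an unadjusted p of 0.05, ranged from -1.32 (SE 1.13) for PITX3 to 0.89 (SE 1.13) for NR4A2. Very Heavy minus Control, where 0 (0%) passed and 636 (4.62%) were under an unadjusted p of 0.05, ranged from -0.59 (SE 0.88) for LMX1B to 0.06 (SE 0.88) for PITX3. Very Heavy minus Heavy, with 0 (0%) and 937 (6.81%), ranged from -0.93 (SE 1.18) for NR4A2 to 1.37 (SE 1.16) for PITX3. Heavy held 4 animals of cohort 1 and 1 of cohort 2, and Very Heavy held 3 and 6. Cohort was not in these fits, so the last contrast is partly confounded with it. In the 3 contrasts 0 factors had an unadjusted p under 0.05.

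**Figure D2:**
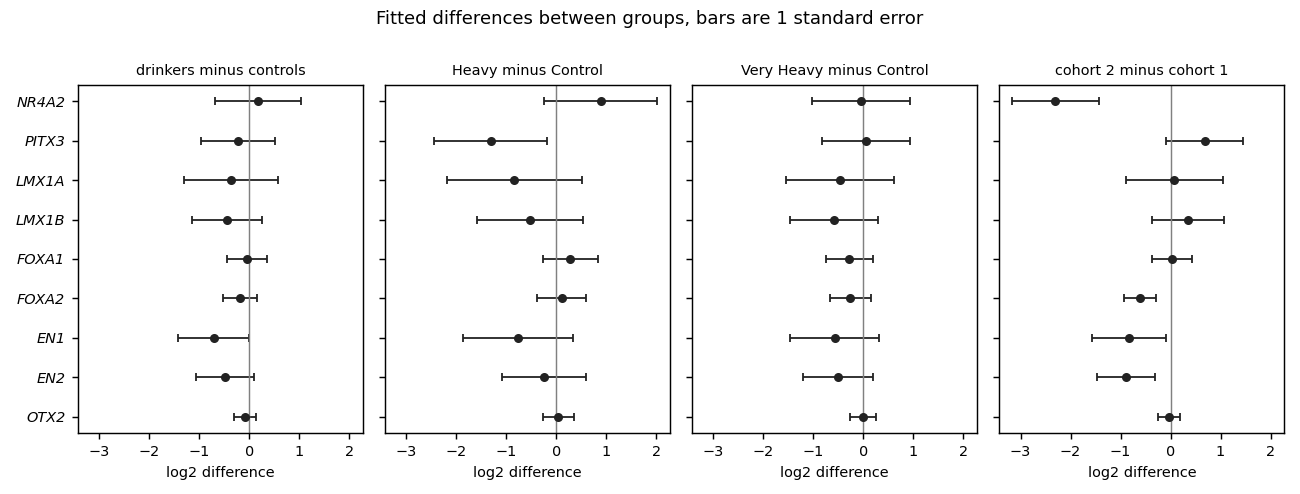
Fitted log2 difference of each factor (horizontal axis) in 4 contrasts, with points for the edgeR estimate and bars for 1 standard error. Only NR4A2 between the cohorts lies more than 2 standard errors from 0, at -2.30 with a standard error of 0.87.

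The cohorts, which were run as separate groups of animals, differed most for NR4A2. Its levels in cohort 1 ran from 0 to 2.98 CPM with a median of 0.342, and in cohort 2 from 0 to 0.319 CPM with a median of 0.175. Of the 16 animals of cohort 1, 8 lay above the highest animal of cohort 2, and the others shared its range. Counts were few, with at most 8 in any animal of cohort 2. The highest values of cohort 1 were those of Control 3 (76 counts), Heavy 4 (45), Very Heavy 2 (40) and Heavy 1 (37). The mean log2 CPM was -1.13 in cohort 1 and -2.14 in cohort 2. With drinkers and controls as a covariate the difference was -2.30 (SE 0.87) on the log2 scale, with an unadjusted p of 0.0128 and an adjusted p of 0.302 by edgeR's quasi-likelihood test, and over the alternatives the adjusted p ran from 0.109 to 0.372. By this test 6 of 13769 transcripts (0.0436%) differed between cohorts and 0 of the 9 factors, and at an unadjusted p under 0.05 there were 1350 transcripts (9.80%) and only NR4A2 among the factors. DESeq2 passed 121 transcripts and 0 factors.

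Other factors leaned both ways between cohorts. FOXA2 was at 7.26 to 35.5 CPM in cohort 1 (median 13.1) and at 3.21 to 29.0 CPM in cohort 2 (median 7.52), a difference of -0.61 (SE 0.33). EN2 differed by -0.89 (SE 0.59), EN1 by -0.83 (SE 0.74), PITX3 by 0.68 (SE 0.77), LMX1B by 0.36 (SE 0.72) and LMX1A by 0.08 (SE 0.97). FOXA1 and OTX2 had differences close to 0, at 0.03 (SE 0.40) and -0.03 (SE 0.23). When TH was added as a covariate, EN1, EN2, LMX1B and NR4A2 had unadjusted p-values under 0.05, as did 10.3% of transcripts, between 0.0149 and 0.0385 by edgeR's test, with EN1 and EN2 lower and LMX1B higher in cohort 2 at a given level of TH, but 0 factors passed adjustment among 13 transcripts that did (0.0944%). The difference between drinkers and controls did not differ between cohorts for any factor after adjustment, where 2 of 13769 transcripts (0.0145%) passed by edgeR's test, and at an unadjusted p under 0.05 there were 0 factors and 9.64% of transcripts. The largest such interaction was that of FOXA2, at -0.99 (SE 0.67), whose difference between drinkers and controls was 0.25 (SE 0.34) in cohort 1 and -0.74 (SE 0.58) in cohort 2. In cohorts 1 and 2 in turn the difference was -0.51 and -0.27 for PITX3, -0.33 and -0.79 for LMX1B, -0.45 and -0.65 for EN1, -0.15 and -0.61 for EN2 and 0.19 and -0.43 for FOXA1. Fitted within a cohort, the difference between drinkers and controls passed for 0 factors in cohort 1 (0.0382% of transcripts) and for 0 in cohort 2 (0%).

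While 0 factors passed a test between groups, several of them varied from animal to animal along with TH. TH ranged from 5.58 to 826 CPM over the 28 animals, with a median of 93.1. The animal with the lowest TH, Heavy 3 at 5.58 CPM, had 0 counts of PITX3 and of LMX1B and 1.09 CPM of EN1. The animal with the highest, Control 5 at 826 CPM, had 3.02 CPM of PITX3, 6.40 of LMX1B and 22.9 of EN1. By contrast, OTX2 was at 23.2 CPM in Heavy 3 and at 19.2 CPM in Control 5. The largest gap between neighbouring log2 values of TH was 0.159 of the range in drinkers, between Very Heavy 5 and Binge 1, and 0.229 in controls, and correlations were computed within each group.

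In the 17 drinkers, EN1 was the factor that followed TH most closely. Its Pearson's r with TH was 0.88 (permutation test, p = 3e-05, adjusted p = 0.0413 over 13768 transcripts) and its Spearman's rho was 0.92, with a permutation p of 1e-05, the smallest that 100000 permutations can give, and an adjusted p of 0.0229, which 0.0581% of transcripts passed in the positive direction. By r, only 10 transcripts (0.0726%) passed in the positive direction and 0 (0%) in the negative, and EN1 was the 1 factor of 9 to pass. The adjusted p of EN1 rose to 0.0516 without Very Heavy 7 and to 0.0551 without Very Heavy 9. PITX3 fell just short with r = 0.84 (permutation p = 4e-05, adjusted p = 0.0501), and rho = 0.74 (permutation p = 0.00111, adjusted p = 0.395). Its adjusted p was 0.0344 without Low 1, 0.0275 without Binge 1, 0.0344 without Heavy 2 and 0.0153 without Heavy 4. The permutation p-values of r for EN1 and PITX3 lie within a few steps of 1e-05, the finest that 100000 permutations resolve. Which of them passed, and their changes with single animals left out, can therefore turn on the random draw. LMX1B had r = 0.80 (permutation p = 0.00014, adjusted p = 0.0964) and rho = 0.78 (p = 0.00038, adjusted p = 0.209), and passed with an adjusted p of 0.025 for r without Very Heavy 2. EN2 had r = 0.66 (permutation p = 0.00397, adjusted p = 0.677) and rho = 0.74 (p = 0.00112, adjusted p = 0.395). These 4 of 9 factors were positively correlated at an unadjusted p under 0.05, which 2.91% of all transcripts were, and 0 were negatively so, beside 1.98%.

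The other factors had weaker or negative correlations in drinkers. FOXA1 had r = 0.34 (rho 0.42), LMX1A 0.27 (rho 0.23), FOXA2 -0.04 (rho 0.01) and NR4A2 -0.06 (rho -0.15), with unadjusted permutation p-values of r from 0.184 to 0.889. OTX2 had the most negative value of the 9, with r = -0.48 (permutation p = 0.0533, adjusted p = 0.999) and rho = -0.52 (p = 0.0338, adjusted p = 1.0). Without Heavy 2 and Heavy 3, the drinkers farthest from the median of TH, r was 0.93 for EN1, 0.80 for PITX3, 0.69 for LMX1B, 0.76 for EN2 and -0.52 for OTX2.

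In the 11 controls the same factors led, none past adjustment. EN1 had r = 0.92 (permutation p = 0.00014, adjusted p = 0.0838) and rho = 0.91 (p = 0.00029, adjusted p = 0.152), and PITX3 had r = 0.92 (permutation p = 0.00029, adjusted p = 0.142) and rho = 0.88 (p = 0.0007, adjusted p = 0.193). EN2 followed with r = 0.84 (permutation p = 0.00255, adjusted p = 0.289) and rho = 0.84 (p = 0.00206), LMX1B with r = 0.78 (permutation p = 0.00615, adjusted p = 0.383) and rho = 0.83 (p = 0.00259), and LMX1A with r = 0.66 (permutation p = 0.0317, adjusted p = 0.572) and rho = 0.73 (p = 0.0141). Thus 5 of 9 factors had a positive correlation at an unadjusted p under 0.05, beside 4.72% of all transcripts, and 0 a negative one, beside 3.42%, while after adjustment 6 transcripts (0.0436%) and 0 factors passed by Pearson's r and 0 transcripts by Spearman's rho. The remaining r values were 0.51 for FOXA1 (rho 0.68), 0.48 for FOXA2 (rho 0.44), 0.43 for NR4A2 (rho 0.47) and -0.09 for OTX2 (rho -0.17), with permutation p-values of r from 0.108 to 0.801. Without Control 1 and Control 2, the controls farthest from the median of TH, r was 0.91 for EN1, 0.93 for PITX3, 0.80 for EN2, 0.80 for LMX1B and 0.67 for LMX1A.

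**Figure D3:**
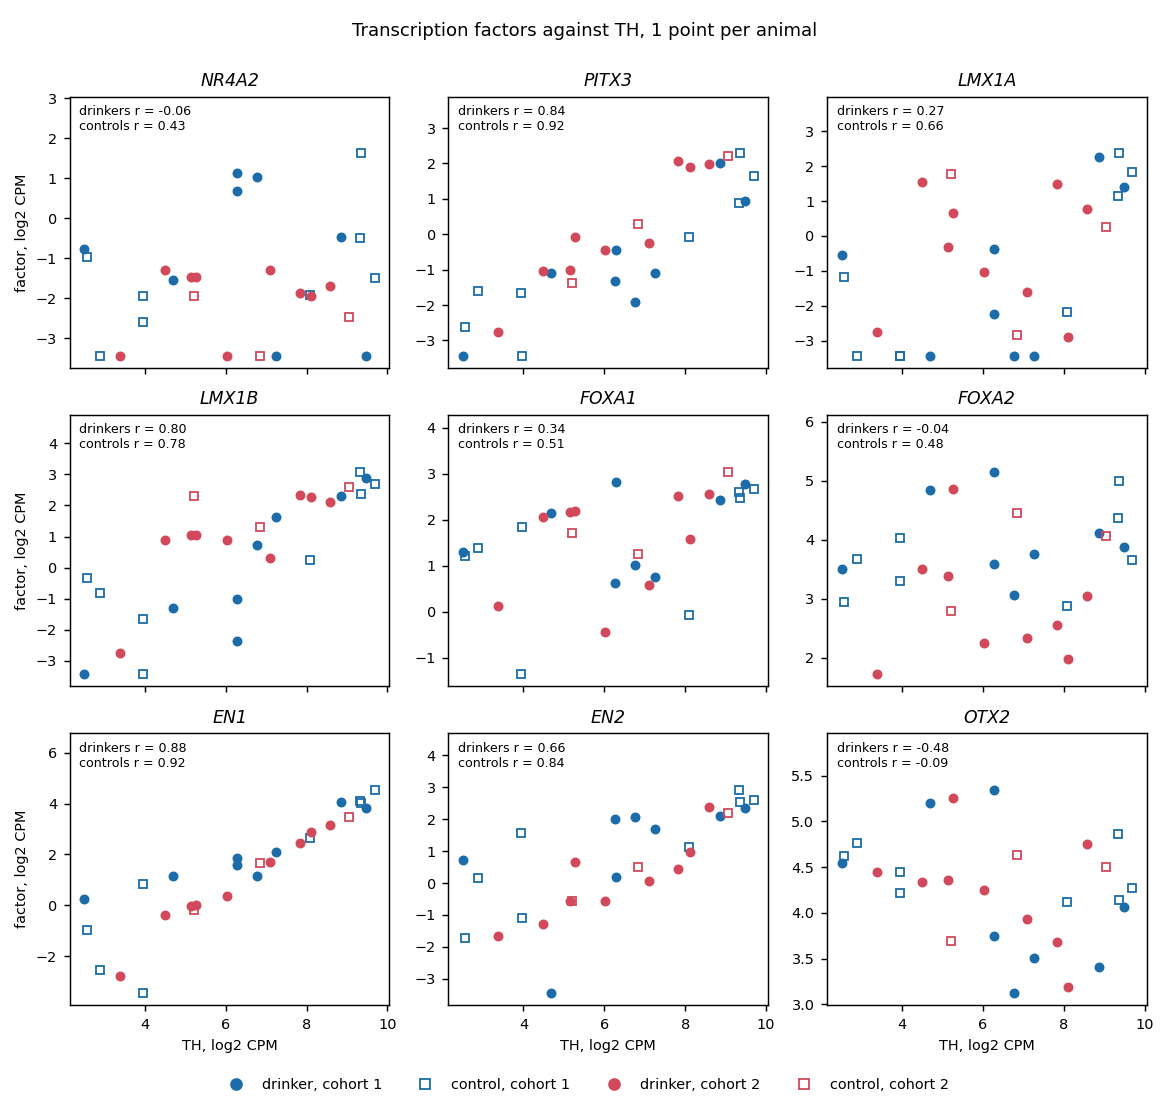
Each factor (vertical axis, log2 CPM) against TH (horizontal axis, log2 CPM), with 1 point per animal, filled circles for drinkers, open squares for controls and colours for cohorts. EN1 rises along TH in both groups (r = 0.88 and 0.92), whereas FOXA2 and NR4A2 in drinkers (r = -0.04 and -0.06) form a flat cloud and OTX2 in drinkers slopes down (r = -0.48).

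The correlations held their size within cohorts for the leading factors, although few animals remained in each. EN1 had r = 0.91 in the 8 drinkers of cohort 1 (exact permutation test, p = 0.00243, adjusted p = 0.822), 0.98 in the 9 drinkers of cohort 2 (exact permutation p = 2.76e-06, adjusted p = 0.0379) and 0.91 in the 8 controls of cohort 1 (exact permutation p = 0.00724, adjusted p = 0.493). In cohort 2 the drinkers had the same order for EN1 as for TH, with rho = 1.0 (exact permutation p = 5.51e-06, adjusted p = 0.0759). EN1 was the 1 transcript of 13768 (0.00726%) to pass by Pearson's r there, and 0 transcripts passed by Spearman's rho, for which a perfect order in 9 animals gives this adjusted p at best to a single transcript. PITX3 had r = 0.86, 0.94 and 0.92 in these sets, and LMX1B had 0.91, 0.78 and 0.83. EN2 had 0.55 in cohort 1 drinkers, 0.86 in cohort 2 drinkers and 0.85 in cohort 1 controls. LMX1A was less even, at 0.43, 0.10 and 0.81. In cohort 1, 0 transcripts passed adjustment in either group. With 8 animals even the smallest exact p cannot carry a single transcript past adjustment over 13768 tests. This 0 was thus almost fixed by the number of animals. The 3 controls of cohort 2 were too few for a correlation.

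With the effects of group and cohort removed, all 28 animals entered a single correlation. In that setting 55 transcripts (0.399%) were positively and 7 (0.0508%) negatively correlated with TH after adjustment, and 4 of the 9 factors were among the former, EN1 (r = 0.92), PITX3 (0.90), LMX1B (0.82) and EN2 (0.75), each with an adjusted p of 0.00492 at the smallest p the permutations can give, 1e-05. LMX1A (r = 0.48, permutation p = 0.0109, adjusted p = 0.374) and FOXA1 (r = 0.43, permutation p = 0.0218, adjusted p = 0.449) did not pass, and NR4A2 (0.18), FOXA2 (0.18) and OTX2 (-0.32) had unadjusted permutation p-values from 0.0986 to 0.364. At an unadjusted p under 0.05, 6 factors were positively correlated, beside 4.94% of transcripts, and 0 negatively, beside 3.78%. The median r of the 9 factors was 0.48, beside 0.00 over all transcripts.

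Whether the correlation with TH differed between drinkers and controls was tested directly by permuting group labels. The Fisher z of drinkers minus that of controls lay between -0.56 for FOXA2 (r = -0.04 and 0.48, permutation p = 0.148, adjusted p = 0.925) and 0.07 for LMX1B (permutation p = 0.865). For LMX1A it was -0.52 (r = 0.27 and 0.66, permutation p = 0.221) and for NR4A2 -0.52 (r = -0.06 and 0.43, permutation p = 0.211). The permutation test gave 0 factors and 0 of 13768 transcripts (0%) after adjustment, and 0 factors and 724 transcripts at an unadjusted p under 0.05.

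**Figure D4:**
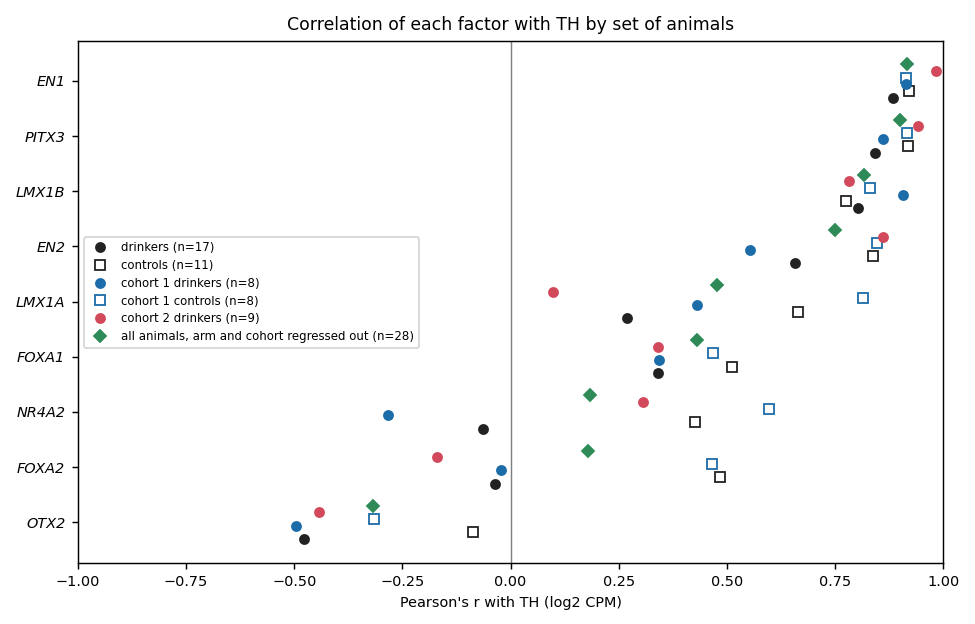
Pearson's r of each factor with TH (horizontal axis, from -1 to 1) in each set of animals, with factors ordered by r over all 28 animals. EN1, PITX3, LMX1B and EN2 are positive in every set (0.55 to 0.98), while LMX1A, NR4A2 and FOXA2 are higher in controls (0.66, 0.43 and 0.48) than in drinkers (0.27, -0.06 and -0.04), differences that did not pass the permutation test.

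For TH, EN1, LMX1B and EN2 the 250 bases before the annotated start are shown, printed 5′ to 3′ on the strand of the gene from RefSeq Mmul_10. The letters are all in lower case, since none of the motifs searched on both strands was found in these 4 windows, which are not all the windows searched.
TH, chr14:2232218-2232467: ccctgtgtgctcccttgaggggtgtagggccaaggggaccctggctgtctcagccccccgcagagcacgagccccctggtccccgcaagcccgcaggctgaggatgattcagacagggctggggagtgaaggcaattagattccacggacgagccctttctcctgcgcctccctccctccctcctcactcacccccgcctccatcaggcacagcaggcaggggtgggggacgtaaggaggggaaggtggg
EN1, chr12:12266918-12267167: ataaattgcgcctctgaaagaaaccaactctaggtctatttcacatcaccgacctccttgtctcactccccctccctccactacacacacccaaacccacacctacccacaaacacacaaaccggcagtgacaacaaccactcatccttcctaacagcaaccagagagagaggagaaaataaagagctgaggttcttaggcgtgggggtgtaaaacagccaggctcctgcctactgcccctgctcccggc
LMX1B, chr15:14016142-14016391: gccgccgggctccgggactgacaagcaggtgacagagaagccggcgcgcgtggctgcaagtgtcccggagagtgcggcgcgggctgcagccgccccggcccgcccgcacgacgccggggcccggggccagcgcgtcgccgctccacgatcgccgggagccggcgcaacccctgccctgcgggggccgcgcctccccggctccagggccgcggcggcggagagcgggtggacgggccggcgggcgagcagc
EN2, chr3:181458589-181458838: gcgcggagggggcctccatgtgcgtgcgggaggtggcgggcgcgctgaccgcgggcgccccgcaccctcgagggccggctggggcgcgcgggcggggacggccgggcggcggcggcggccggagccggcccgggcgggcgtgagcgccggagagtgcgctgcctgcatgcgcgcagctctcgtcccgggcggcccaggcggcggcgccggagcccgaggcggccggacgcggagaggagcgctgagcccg
The motifs were the NR4A2 response element (AAAGGTCA), the forkhead core (TGTTTAC), the homeodomain core (TAATTA) and a bicoid-type homeodomain motif (TAATCC), the kind of site that OTX2 binds. They occurred in 0.938%, 2.56%, 4.40% and 9.29% of the upstream windows of 20782 genes. The homeodomain core occurred in that of OTX2, and matches in the windows of the other factors are not reported here. GC content was 66.8% before TH, 52.4% before EN1, 81.6% before LMX1B and 84.8% before EN2, with a median of 57.2% over all genes. Such matches describe the letters of these windows and no more.

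The factors can be set beside the genes they regulate and beside other regulators of the same lineage. Of 12 target and effector genes of dopamine neuron identity, 11 passed the filter, and after adjustment 4 were positively correlated with TH in drinkers (0.0726% of all transcripts), 2 in controls (0.0436%) and 7 over all animals with group and cohort removed (0.399%), where the factors had 1, 0 and 4 of 9 at the same threshold. The targets had a median r of 0.72 and a median log2 difference between drinkers and controls of -0.40. The dopamine transporter gene SLC6A3 had r = 0.97 over all animals, the decarboxylase gene DDC 0.97 and the neurotrophic receptor gene RET 0.92, whereas the autoreceptor gene DRD2 had 0.53 (permutation, adjusted p = 0.253). Among 30 other developmental regulators, 29 were in the table, 25 passed the filter, and 0 were correlated in drinkers or controls and 2 over all animals, with a median r of 0.25 and a median difference of -0.07. Of these, PAX8 (r = 0.78, adjusted permutation p = 0.00787), with a median of 3.5 counts, was chosen for naming after its value was seen. RXRB, a partner of NR4A2, had r = 0.10 and EBF3 had 0.40. Between drinkers and controls 0 genes of either list had an unadjusted p under 0.05 by edgeR's test.

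As a description, the 3 transcripts with the most similar pattern over 28 animals were found for each factor among 10714 others with a median of at least 10 counts (10715 for NR4A2). EN1 was most like DDC (r = 0.93), TH (0.90) and SLC6A3 (0.89), and PITX3 like SLC6A3 (0.88), the nicotinic receptor subunit gene CHRNB3 (0.88) and TH (0.88). For LMX1B the list read PITX3 (0.82), IGFBP4 (0.79) and TH (0.78), and for EN2 it read PAX5 (0.82), FRMPD1 (0.81) and the vesicular transporter gene SLC18A2 (0.80). By this order TH had rank 2 for EN1, 3 for PITX3, 3 for LMX1B and 13 for EN2.

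A different company surrounded the rest. LMX1A was most like the kappa opioid receptor gene OPRK1 (r = 0.74), PRKG1 (0.67) and LANCL2 (0.66), with TH at rank 133. FOXA1 was most like RASD1 (0.78), PECR (0.75) and DNAL1 (0.74), FOXA2 like PRMT8 (0.82), EBF3 (0.74) and NKX6-1 (0.73), and OTX2 like CPLX3 (0.80), FAM163B (0.75) and MMP15 (0.73). NR4A2, at a median of 4 counts, had UTP15 (0.69), SLC35G2 (0.63) and YPEL5 (0.63). Among the factors themselves the highest r were those of EN1 with PITX3 (0.83), PITX3 with LMX1B (0.82) and EN1 with EN2 (0.73). LMX1A was at 0.59 with LMX1B, 0.57 with FOXA1 and 0.56 with PITX3, but at 0.37 with EN2. FOXA1 was at 0.51 with PITX3 and at 0.19 with EN2. FOXA1 and FOXA2 were related (0.52), as were FOXA2 and OTX2 (0.51), while OTX2 was at or below -0.15 with PITX3, EN1, LMX1B, EN2 and TH.

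**Figure D5:**
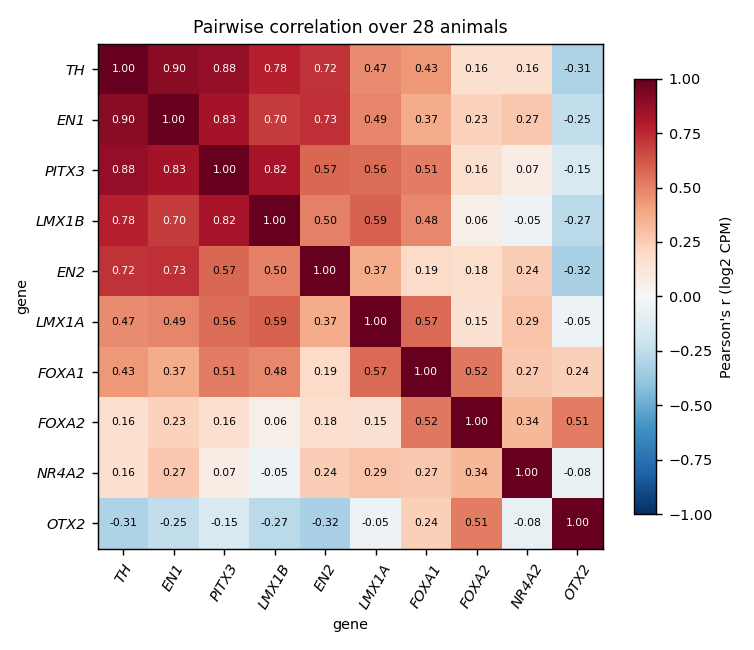
Pearson's r between every pair of the 9 factors and TH over 28 animals (log2 CPM), with colour from -1 (blue) to 1 (red) and the value printed in each cell. TH, EN1, PITX3, LMX1B and EN2 form a block of r between 0.50 and 0.90, and FOXA2 and OTX2 (0.51) lie outside it. With members of the block LMX1A reaches 0.59 (LMX1B) and FOXA1 0.51 (PITX3), but with EN2 they have 0.37 and 0.19.

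Markers of other cells of the midbrain were read beside these results, by their summed CPM in each animal. Of 6 GABA neuron markers 5 were in the table, with sums of 149 to 409 CPM in drinkers and 127 to 410 CPM in controls, and their sum had r = -0.76 with LMX1A, -0.54 with LMX1B, -0.46 with PITX3 and -0.39 with TH. The 3 serotonin neuron markers summed to 0 to 10.4 CPM in drinkers (median 0.326) and 0.0937 to 2.37 CPM in controls (median 0.397). This low sum had r = 0.51 with LMX1A and 0.38 with TH. Of the 2 noradrenaline neuron markers SLC6A2 was at 0 in every animal, so the sum was that of DBH alone. It reached at most 0.641 CPM, with medians of 0 in drinkers and 0.0794 in controls, under the limit of 3 counts. From values so near the floor, r was 0.48 with LMX1B and 0.44 with TH. The 5 markers of choroid plexus and ependyma, where OTX2 is also made, summed to 9.19 to 729 CPM in drinkers and 9.61 to 309 CPM in controls and had r = 0.22 with OTX2, 0.43 with LMX1B, 0.40 with PITX3 and 0.40 with EN1. OTX2 was at -0.51 and FOXA2 at -0.45 with the microglia sum, and FOXA1 at -0.53 with the oligodendrocyte sum. With the astrocyte sum LMX1B was at 0.49 and LMX1A at 0.47. Over the 12 lists other than dopamine neurons, r with EN1 lay between -0.38 and 0.40 and r with EN2 between -0.40 and 0.35, and r of EN1 with the dopamine neuron sum, which includes TH, was 0.91. Total counts had r = 0.50 with EN2, 0.39 with TH and 0.29 with EN1, and the mitochondrial share had r between -0.17 and 0.21 with every factor. The part of cell composition and depth in the correlations with TH was not tested.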

How the data were processed

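Total RNA from VTA punches was sequenced once per animal, and the deposited values are estimated counts per transcript, 1 transcript per gene symbol, that the authors made with Salmon 1.9.0 after trimming with Trim Galore 0.6.7 (submitters' processing notes, which also name DESeq2 1.36.0). Salmon divides reads among transcripts by likelihood, so values need not be whole. The study names the Mmul_10 genome, and the annotation release was not given in the sources used here. Of 16886 entries, 1 without a symbol (1.16e-05% of counts) was left out. Counts were rounded, and the 13769 transcripts that reached 5 counts in 3 or more animals entered the tests. Totals of 12303915 to 27338673 counts put the limit of 3 counts, which covers counting error only, at 0.110 to 0.244 CPM. The most alike libraries had 1.76% of counts identical. Groups came from the labels, while cohorts were read per animal number from the study's source data and served as a covariate, as subsets and for the comparison of cohorts.

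Differences were tested with edgeR 4.0.16 (TMM, quasi-likelihood F test) across all transcripts with Benjamini-Hochberg adjustment and a threshold of 0.05, and with DESeq2 1.42.0 and limma 3.58.1 (voom) in R 4.3.3 as alternatives. Correlations with TH used log2 CPM (prior count 2) and 100000 permutations, or exact permutation for 9 animals or fewer, in Python 3.11.15 (scipy 1.17.1, numpy 2.4.6, and pandas 2.3.3 for tables), and plots used matplotlib 3.10.9. Other normalizations, filters, prior counts, single cohorts, covariates and left-out animals were tried. Both procedures were also run on simulated data with 200 altered transcripts, with outcomes not given here. The 9 members and the gene lists were chosen with earlier results of these data known. Named are all members, TH, the 3 transcripts most like each member, and up to 4 genes per list with the highest median counts, except that PAX8 was named after its value was seen and that some genes and sequences are not reported here.

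Marker lists for 13 cell types were summed per animal. Of those not described with the results, summed CPM ranged over all drinkers and controls respectively as follows. Glutamate neurons spanned 65.1 to 372 and 35.9 to 222, cholinergic and oculomotor neurons 0.998 to 3.73 and 0.425 to 4.50, the red nucleus 0 to 3.08 and 0 to 4.13, and subthalamic and posterior hypothalamic neurons 5.63 to 41.7 and 6.66 to 49.9. Oligodendrocytes spanned 11341 to 19891 and 11876 to 20927, astrocytes 539 to 1248 and 486 to 786, microglia 130.3 to 399 and 231 to 389, and endothelial cells 34.8 to 128 and 58.2 to 108.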

Additional observations from a re-analysis of the deposited data

Results flagged for a closer look

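Among 45 sets of a gene and a group of 4 to 10 animals, 2 had an animal far from the rest by Dixon's ratio, the gap to the nearest animal divided by the range of log2 CPM. Chance alone flags about 1 in 20 such sets. EN2 had 0 counts in Very Heavy 1, against 1.05 to 4.97 CPM in the other drinkers of cohort 1 (ratio 0.629, critical value 0.526, n = 8). LMX1B had 1 count, 0.0553 CPM, in Very Heavy 5, against 1.16 to 5.01 CPM in the other drinkers of cohort 2 (ratio 0.602, critical value 0.493, n = 9). Very Heavy 1 and Very Heavy 5 had the lowest totals among the drinkers, 14338555 and 16421212 counts. Very Heavy 5 was also low in TH, at 10.3 CPM. The part of depth and of TH in these 2 values was not tested.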

How the results depend on the processing

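No paired analysis was possible because the labels give no replicate numbers (those used here only name animals) and do not say which control was yoked to which drinker. Under the alternatives run, 0 factors differed between drinkers and controls, categories or cohorts, also with each Heavy or Binge animal left out for categories (0 to 0) and with each of Control 9, 10 and 11 left out for cohorts (0 to 0). Fitted differences between drinkers and controls, all within their errors, changed sign with TH as a covariate (PITX3 0.21, LMX1A 0.037, FOXA1 0.067, EN1 0.060), with limma-voom (LMX1A 0.16, FOXA1 0.15, EN1 0.10), in cohort 1 (FOXA1 0.19, FOXA2 0.25), in cohort 2 (OTX2 0.028) and in Heavy and Very Heavy drinkers (OTX2 0.0066). Between the cohorts of drinkers FOXA1 was at -0.20 and OTX2 at 0.015. FOXA2 was at -0.97 there (SE 0.42), with an unadjusted p of 0.0322 and an adjusted p of 0.307 by edgeR's test. In that fit 1741 of 13195 transcripts had an unadjusted p under 0.05. With Control 9, 10 or 11 left out in turn, the cohort difference of FOXA2 was -0.78, -0.69 and -0.55. The number of factors correlated with TH in drinkers, 1, became 2 with variance stabilized counts (0.109% of transcripts) and with a prior count of 0.5 (0.0799%), 0 in cohort 1, 4 over all 28 animals with group and cohort removed, 0 to 2 with single drinkers left out, and 0 with at least 10 counts in every animal, where only FOXA2 and OTX2 were tested. In the 8 drinkers of cohort 1 no single transcript could have passed adjustment. Moves between 0 and 2 can turn on the random draw, since EN1 and PITX3 have p-values near the resolution of the permutations. In controls the number was 0, became 1 (EN1) with variance stabilized counts (0.116% of transcripts) and 4 over all animals, and was 0 to 0 with single controls left out. In drinkers r of NR4A2 became 0.31 in cohort 2, 0.18 without the 2 farthest animals, 0.18 over all animals and -0.23 to 0.093 with 1 animal left out, and that of FOXA2 0.015 as rho, 0.18 over all animals and -0.25 to 0.051 with 1 left out. In controls OTX2 became 0.295 without the 2 farthest animals and -0.30 to 0.077 with 1 left out. With 1 animal left out, r of LMX1A in drinkers ran from 0.158 to 0.376 and that of FOXA1 from 0.224 to 0.385. For NR4A2 in controls it ran from 0.269 to 0.581. The cause was not tested. Over all transcripts, DESeq2 passed 11 against 0 for drinkers, 396 against 158 for categories and 121 against 6 for cohorts, where drinkers alone gave 104, TH as a covariate 13, DESeq2 size factors 3, and leaving out Control 11 gave 0. DESeq2's interaction gave no adjusted p for the factors. In cohort 2 drinkers EN1 passed by Pearson's r (adjusted permutation p = 0.0379, n = 9) but not by Spearman's rho (0.0759, the best that 9 animals allow a single transcript). For drinkers against controls NR4A2 moved from 0.17 to 0.74 with cohort as a covariate, 0.58 with TH as a covariate and 1.14 in cohort 2, all within 1 standard error of 0. Depth was lowest for NR4A2, LMX1A and PITX3, with medians of 4, 10.5 and 14.5 counts.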
